A study of Mus musculus with 24 samples.

Results

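The dose by genotype interaction at day 4 asks which genes answer the strength of T cell receptor stimulation differently when BATF and BATF3 are missing. It uses 12 of the 24 arrays of the series: 3 each of wild-type (WT) and double knockout (DKO, Batf1/3DKO in the labels) CD4 T cells at 2.2 and at 10 ng of anti-CD3e (the labels give no volume). All 4 groups came from 129SvEv mice, began as naive CD4 T cells and were cultured for 4 days under TH2 conditions. Soluble anti-CD3e triggered the receptor, and anti-CD28, cross-linked through anti-hamster IgG on the plate, gave the costimulus to every group. The labels do not name the cytokines of the TH2 culture, the way the alleles were made, or the age, sex and number of the mice. Nor do they tell if the 3 arrays of a group stand for different animals or different wells, so a p-value here covers array-to-array spread alone, part or all of which may be technical. The quantity reported is the dose effect (10 against 2.2 ng) in DKO cells minus the dose effect in WT cells, on the log2 scale, for 19938 genes. A negative value means that the rise with dose was smaller, or the fall larger, without BATF and BATF3.

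BATF and BATF3 are small basic leucine zipper proteins that pair with JUN proteins and bind AP-1 sites. Together with IRF4, whose amount in T cells follows the strength of receptor signalling, they occupy composite elements in which an AP-1 site and an IRF site lie side by side. TH2 cells are the helper T cells that make IL-4, IL-5 and IL-13, and sustained receptor signalling also raises glycolysis, sterol synthesis and cell division in T cells.

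The 2 deleted genes served as a check on the labels. Batf signal was 1424, 1451 and 1652 in WT cells at 2.2 ng and at 1696, 1497 and 1593 at 10 ng, against 33.4, 26.7 and 36.5 at 2.2 ng and 43.0, 44.4 and 52.1 at 10 ng in DKO cells. Its DKO arrays all lay below its WT arrays, and its interaction did not pass (0.46 ± 0.22, adjusted p = 0.282), although the low DKO signal rose 1.45-fold (95% confidence interval, CI, 1.16 to 1.81). Batf3 read 33.7, 29.7 and 23.5 in WT cells at 2.2 ng and 156, 173 and 109.7 at 10 ng, a rise of 5.02-fold (95% CI 3.83 to 6.57). In DKO cells it read 21.6, 27.3 and 23.7 at 2.2 ng and 33.3, 24.7 and 31.5 at 10 ng, near the array background, and its interaction was -2.03 ± 0.27, adjusted p = 1.51e-05. Where the probes lie relative to the deleted parts is not given in the sources used here. Irf4, which was not deleted, read 338, 267 and 588 at 2.2 ng and 1399, 1197 and 1315 at 10 ng in WT cells, a rise of 3.46-fold (95% CI 2.55 to 4.70). The DKO arrays read 281, 418 and 352 at 2.2 ng and 878, 971 and 838 at 10 ng, a rise of 2.59-fold (95% CI 1.90 to 3.51). The 10 ng arrays lay above the 2.2 ng arrays in both genotypes, and the Irf4 interaction did not pass (-0.42 ± 0.30, adjusted p = 0.558). It ran from -0.74 without WT replicate 3 at 2.2 ng (adjusted p = 0.101), which read 588, to -0.17 without replicate 2 of that group, and did not pass in any alternative.

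In many of the genes described here, WT replicate 3 at 2.2 ng was nearer the 10 ng group than replicates 1 and 2 were. Among genes that rose with dose in WT cells, Irf4 read 588, Il13 168 and Ifitm3 90.3 on it, and Il4, Il24, Inhba and Lilrb4a were also shifted. Among genes that fell, Tox, Trat1, Icos, Ifi203 and Epas1 were. Other genes, such as Foxo1, Il6ra and Socs3, were farther from the 10 ng group on this array. Over all genes its residual SD of 0.2 on the log2 scale was the largest of the day 4 arrays. The other arrays in its group had 0.163 and 0.192. At 10 ng, WT replicate 3 was also the highest of its group for Il13, Il4, Il24, Lilrb4a and Ifitm3. For Irf4 and Inhba it was not. Arrays of a group correlated at 0.985 to 0.992 over all genes, and array medians ran from 26.7 to 28.9. The guide for background was an intensity of 28.6, the centre of all probe set means, since the files used here give no detection call. Where the lower group of a dose contrast lay at or below the guide, the change is given as at least the brighter group over the guide, with the adjusted p of the fit, and no fold is given where both groups did. Interactions of such genes rest on signal at background and their size is not a measured ratio. Of the 10 measured T cell identity genes none lay at or below it in all groups, and Cd3e and Cd4 read 1129 to 1802 and 576 to 804. Markers of other cells at or below it in all groups were 7 of 8 for B cells, 8 of 10 for macrophages, 9 of 9 for granulocytes, 4 of 5 for natural killer cells, 4 of 4 for erythroid cells, 1 of 2 for CD8 T cells and 5 of 9 for antigen-presenting class II cells. The summed class II signal was 274 to 404 in WT cells at 2.2 ng and 767 to 1048 at 10 ng, and 216 to 260.4 and 521 to 591 in DKO cells. In a bulk sample, fewer cells of a type and less RNA per cell cannot be told apart.

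The interaction was called (limma, Benjamini-Hochberg adjusted p under 0.05) for 1384 of 19938 genes, 6.94%, of which 710 were positive (3.56%) and 674 negative (3.38%). The median gene had an interaction of 0.02. Effects of at least 1 on the log2 scale numbered 357 positive and 391 negative, and effects of at least 2 numbered 42 and 81. The dose contrast itself called 3022 genes in WT cells (15.2%; 1523 higher at 10 ng, 7.64%, and 1499 lower, 7.52%). It called 1625 in DKO cells (8.15%; 891 higher, 4.47%, and 734 lower, 3.68%). By at least 2-fold, WT cells had 524 genes higher and 252 lower, and DKO cells 289 and 133. The contrasts share no array. Across genes, which are not independent replicates, the WT and DKO dose effects had a Pearson correlation of 0.377 and a Spearman correlation of 0.239, n = 19938. Of the genes called in WT cells, 22.7% were also called in DKO cells with the same sign, which was 42.2% of the DKO calls. Without WT replicate 3 at 2.2 ng the interaction called 1102 genes, 551 in each direction. Of the 1384, 1011 remained called and all 1384 kept their sign.

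**Figure D1:**
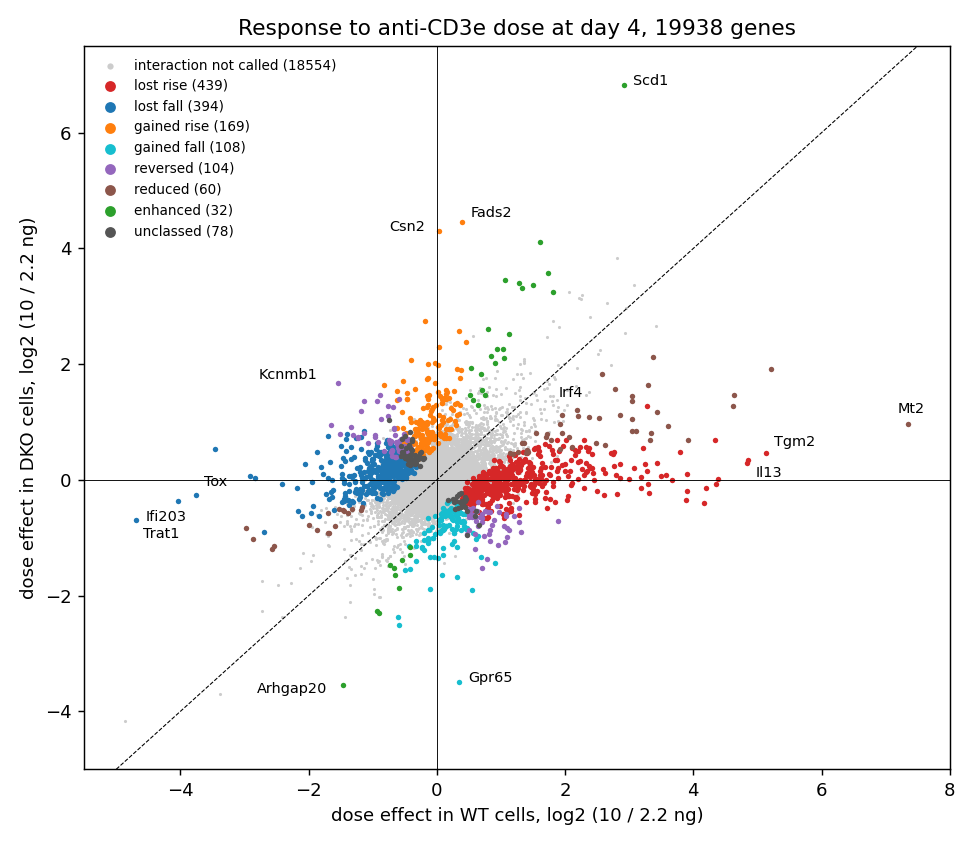
Dose effect (log2 of 10 over 2.2 ng) in DKO cells on the vertical axis against WT cells on the horizontal axis, 1 point per gene for 19938 genes, with the 1384 called interactions coloured by class and the diagonal marking equal responses. The 439 lost rises and 394 lost falls lie along the horizontal line at 0, the 169 gained rises and 108 gained falls along the vertical one, and Mt2 is farthest to the right.

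Each called gene was placed by its dose contrasts. A rise or fall called in WT cells and not in DKO cells is named lost, and the opposite case gained. Responses called in both are named reversed when the signs differ, and reduced or enhanced by size when they match. The largest class was 439 lost rises, with a median dose effect of 1.11 in WT cells and -0.02 in DKO cells. There followed 394 lost falls (-0.80 and 0.16), 169 gained rises (-0.14 and 0.89), 108 gained falls (0.16 and -0.82), 104 reversals, 60 reduced and 32 enhanced responses. In 78 genes neither dose contrast was called. A missed call does not show that a response was absent. In 136 of the 439 lost rises (31%) DKO cells lay at or below the background guide at both doses, against 21 of 394 lost falls and 1 of 104 reversals.

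The class of a gene rests on 3 calls at once and was sensitive to single arrays. Over the fits that left out 1 array each, 248 of 439 lost rises, 155 of 394 lost falls, 71 of 169 gained rises, 33 of 108 gained falls and 26 of 104 reversals kept their class every time. Without DKO replicate 1 at 2.2 ng there were 95 gained rises, 62 gained falls, 60 reversals and 35 reduced responses, and 577 higher and 481 lower genes in the DKO dose contrast. Without DKO replicate 2 at 2.2 ng there were 68 gained falls, 38 reduced responses and 483 lower genes in that contrast. Leaving out DKO replicate 2 or 3 at 10 ng gave 36 reduced responses in either case, and without replicate 3 the DKO contrast had 466 lower genes. Without WT replicate 2 at 10 ng there were 248 lost falls, and without WT replicate 2 at 2.2 ng 121 genes with neither dose called.

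Since BATF acts at AP-1 sites, the 250 bases before each start site in the RefSeq promoter table (GRCm38.p6) were searched on both strands for TGANTCA, and for the same letters joined to an IRF site, with GAAA directly before them or TTTC 4 bases before them, which also count as TGANTCA. Of 15614 tested genes with a promoter, 7.12% held TGANTCA, 0.128% the first joined form and 0.0769% the second. Among the 30 genes with the largest interactions, 21 had a promoter and 4 of them (19%) held TGANTCA. They are shown here with 40 bases on either side where the window allowed, the match in capitals, in the order joined form first and then by size of effect. Hamp (chr7:30944070-30944160, minus strand, 91 bases upstream), Mt2 (chr8:94172499-94172585, plus strand, 79 bases), Ifitm3 (chr7:141010803-141010889, minus strand, 105 bases) and Ifi203 (chr1:173942654-173942740, minus strand, 208 bases, or 28 bases from another start of the gene) read as follows.
Hamp: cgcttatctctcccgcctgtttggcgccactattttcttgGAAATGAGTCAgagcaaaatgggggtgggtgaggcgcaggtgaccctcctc
Mt2: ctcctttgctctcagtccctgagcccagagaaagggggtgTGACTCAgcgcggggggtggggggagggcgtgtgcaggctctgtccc
Ifitm3: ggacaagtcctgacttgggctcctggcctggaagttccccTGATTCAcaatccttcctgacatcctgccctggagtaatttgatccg
Ifi203: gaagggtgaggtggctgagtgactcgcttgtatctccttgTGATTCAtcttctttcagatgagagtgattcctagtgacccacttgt
The Hamp window alone held the joined form. In the classes, TGANTCA was present in 9.24% of lost rises with a promoter (33 of 357), 5.9% of lost falls, 3.85% of gained rises, 5.75% of gained falls and 3.49% of reversals. A match is a run of letters and not a measured binding site.

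Hamp, which encodes the iron hormone hepcidin, read 7.79, 11.98 and 6.68 in WT cells at 2.2 ng and 52.7, 163 and 150.3 at 10 ng. DKO values were 12.1, 7.38 and 17.1 at 2.2 ng and 8.98, 17.8 and 9.42 at 10 ng, at background throughout. The WT rise was at least 3.81-fold (adjusted p = 8.28e-07), and the interaction was -3.68 ± 0.61, adjusted p = 0.00026. Ifitm3, an interferon-induced membrane protein that blocks virus entry, read 13.03, 18.9 and 90.3 at 2.2 ng and 444, 387 and 788 at 10 ng in WT cells, and 6.10 to 8.78 in all 6 DKO arrays. All WT arrays lay above all DKO arrays, and the interaction was -4.33 ± 0.62, adjusted p = 4.04e-05, or -5.17 without WT replicate 3 at 2.2 ng.

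Mt2, a metallothionein, had the largest fitted interaction of all 19938 genes, with a WT baseline below background. Metallothioneins are small proteins that bind zinc and copper. Mt2 read 12.7, 14.9 and 11.1 in WT cells at 2.2 ng and 1889, 1944 and 2532 at 10 ng, a rise of at least 73.5-fold (adjusted p = 1.46e-14). Without BATF and BATF3 it read 13.9, 11.2 and 9.83 at 2.2 ng and 12.3, 18.1 and 51.5 at 10 ng, and only replicate 3 left background. The interaction was -6.39 ± 0.42, adjusted p = 5.38e-10. The small DKO rise was called (adjusted p = 0.0425), but not in every alternative (0.00134 to 0.336). Mt1 rose 37.2-fold (95% CI 22.4 to 61.7) in WT cells, from 85.4, 35.5 and 74.6 to 2059, 1982 and 2855. It rose at least 3.26-fold (adjusted p = 0.000699) in DKO cells, from 28.2, 23.1 and 23.2 to 87.3, 93.8 and 99.3, with no overlap between doses in either genotype (interaction -3.30 ± 0.50, adjusted p = 9.3e-05). The paralogs may share probe signal. Of the 10 genes in the metallothionein and zinc transport list, these 2 alone were called in the interaction (6.94% of all genes were). The zinc carriers Slc39a14 and Slc39a10 had interactions of -0.48 ± 0.20, adjusted p = 0.171 and 0.42 ± 0.24, adjusted p = 0.41, and Slc39a14 passed without WT replicate 3 at 10 ng (adjusted p = 0.04; 0.04 or above in all alternatives).

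Among cytokine genes, Il4, Il5, Il13, Il24 and Il21 rose with dose in WT cells and were not called in DKO cells. Il13 read 48.6, 41.5 and 168 in WT cells at 2.2 ng and 1659.9, 1614 and 3052 at 10 ng. In DKO cells it read 47.7, 44.7 and 40.4 at 2.2 ng and 44.6, 61.7 and 62.9 at 10 ng. Only the WT arrays at 10 ng were high, a rise of 28.9-fold (95% CI 17.7 to 47.2) against a DKO ratio of 1.26 (95% CI 0.772 to 2.06), and the interaction was -4.52 ± 0.49, adjusted p = 9.74e-07. Il4, a gene outside the naming rule that was chosen with its values in view, read 22.2, 18.1 and 99.9 at 2.2 ng and 264, 342 and 386 at 10 ng in WT cells. The DKO arrays read 20.7, 16.1 and 16.4 at 2.2 ng and 18.8, 23.6 and 21.6 at 10 ng, all at or below background. The WT rise was 9.54-fold (95% CI 5.75 to 15.8) and the interaction -2.98 ± 0.50, adjusted p = 0.000307. Both genes were high in WT replicate 3 at 2.2 ng, and without it the interactions were -5.15 for Il13 and -3.76 for Il4. Il5 reached only 30.2, 28.9 and 75.6 in WT cells at 10 ng, from 8.74, 8.43 and 7.51, and stayed at 7.86 to 10.5 in DKO cells (interaction -2.44 ± 0.34, adjusted p = 2.78e-05).

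Il24, an IL-10 family cytokine, read 30.4, 23.4 and 113 in WT cells at 2.2 ng and 1020.5, 1188 and 1538 at 10 ng, against 13.6, 8.37 and 10.7 at 2.2 ng and 12.5, 11.95 and 14.9 at 10 ng in DKO cells. The rise was 28.5-fold (95% CI 17.2 to 47.4) in WT cells, both DKO groups were below background and the interaction was -4.54 ± 0.50, adjusted p = 1.49e-06, or -5.24 without WT replicate 3 at 2.2 ng. Il21, the cytokine of follicular helper cells, rose at least 12.99-fold (adjusted p = 8.48e-13) from 26.9, 21.0 and 28.4 to 386, 335 and 396 in WT cells. It read 7.24, 11.2 and 6.61 at 2.2 ng and 5.91, 5.56 and 7.87 at 10 ng in DKO cells, below background at both doses (interaction -4.23 ± 0.28, adjusted p = 5.38e-10). Il10, also added with its values in view, differed: it was high in WT cells at both doses, 472, 264 and 546 at 2.2 ng and 462, 410.5 and 897 at 10 ng, and 7.44 to 10.1 in all DKO arrays. Neither its dose contrasts nor its interaction passed (-0.50 ± 0.37, adjusted p = 0.564), and at either dose the highest DKO array was below the lowest WT array. Of 13 measured genes in the TH2 cytokine and IL-10 list, 5 had a negative interaction (3.38% of all genes did) and 1 a positive one (3.56%), Csf2. The DKO arrays of Csf2 read 15.97, 14.3 and 14.4 at 2.2 ng and 20.3, 24.9 and 30.9 at 10 ng, with both group means below background. In the dose contrasts 6 of the 13 rose in WT cells (7.64% of all genes did) and 1 in DKO cells (4.47%).

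**Figure D2:**
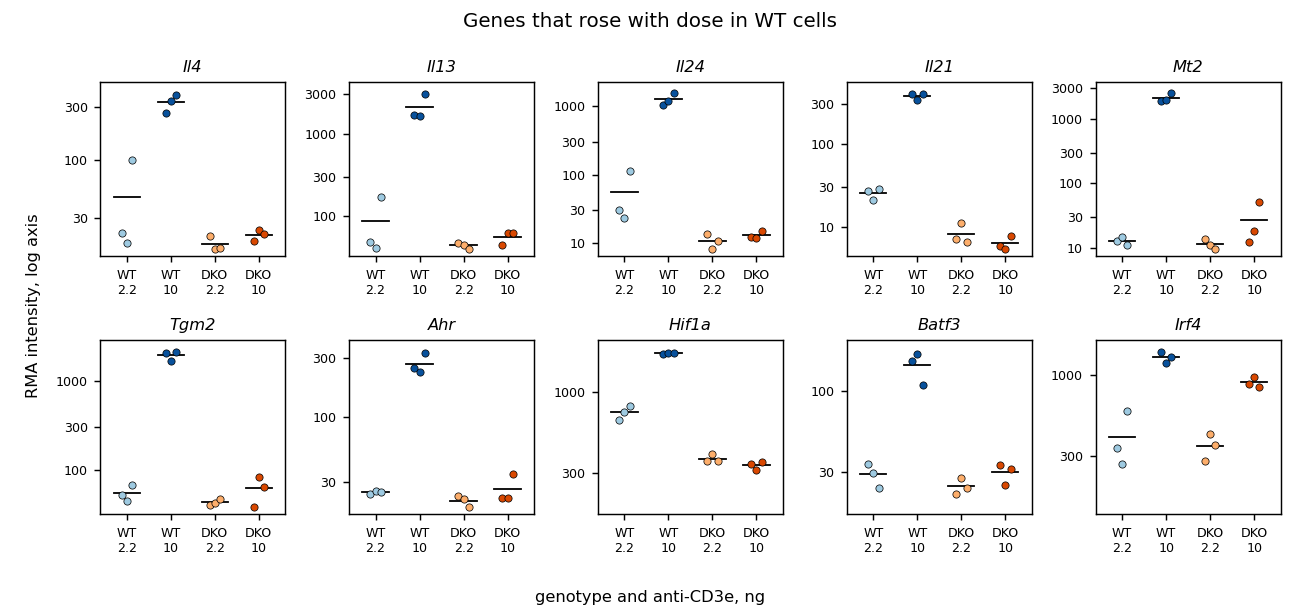
Array intensities (log axis) of 10 genes that rose with dose in WT cells, in WT and DKO cells at 2.2 and 10 ng of anti-CD3e. Each point is 1 array and each bar the mean of 3. In the Il13, Il24, Mt2 and Tgm2 panels the WT arrays at 10 ng stand far above the other 9, whereas Irf4 rose in both genotypes.

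Other large lost rises were in genes of enzymes, surface receptors and secreted proteins. Tgm2, the crosslinking enzyme transglutaminase 2, read 53.2, 45.2 and 67.9 in WT cells at 2.2 ng and 2053, 1659 and 2107 at 10 ng. It read 40.5, 42.7 and 47.2 at 2.2 ng and 39.0, 83.1 and 65.2 at 10 ng in DKO cells, where the doses overlapped. The WT rise was 35.3-fold (95% CI 25.5 to 48.9) and the interaction -4.68 ± 0.32, adjusted p = 9.57e-10. The inhibitory receptor Lilrb4a read 53.0, 50.7 and 115 at 2.2 ng and 1183, 1219 and 1975 at 10 ng in WT cells, and lay at or below background in all DKO arrays (interaction -4.37 ± 0.34, adjusted p = 8.02e-09). Its near-identical neighbour Lilr4b, which may share probe signal, had -4.44 ± 0.36, adjusted p = 1.32e-08. Inhba, the activin A subunit, rose 9.91-fold (95% CI 6.78 to 14.5) in WT cells, from 86.7, 93.4 and 262 to 1153, 1594 and 1122. Its DKO arrays at 2.2 ng read 26.6, 30.2 and 26.7 and those at 10 ng 22.3, 27.3 and 21.7 (interaction -3.54 ± 0.37, adjusted p = 7.89e-07).

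Smaller in level were Timp1, a metalloproteinase inhibitor (-3.81 ± 0.34, adjusted p = 8.88e-08), the tetraspanin Cd63 (-3.64 ± 0.49, adjusted p = 2.04e-05), the parathyroid hormone gene Pth (-4.09 ± 0.42, adjusted p = 5.9e-07) and the cysteine protease inhibitor Stfa2 (-4.57 ± 0.57, adjusted p = 8.27e-06). All 4 lay at or below background in every DKO array. A further 3 genes were called in both genotypes, with a smaller effect in DKO cells. Gja1, the gap junction protein connexin 43, rose at least 13.8-fold (adjusted p = 1.89e-10) in WT and at least 1.59-fold (adjusted p = 0.00391) in DKO cells. Gatm, an enzyme of creatine synthesis, rose at least 23.7-fold (adjusted p = 1.63e-12) in WT cells, and Il12rb2, a chain of the IL-12 receptor, at least 10.6-fold (adjusted p = 2.28e-12), while both genes had DKO group means below background at either dose. The interactions of Gja1, Gatm and Il12rb2 were -3.17 ± 0.46, adjusted p = 5.16e-05, -3.34 ± 0.34, adjusted p = 5.29e-07 and -3.23 ± 0.29, adjusted p = 1.01e-07. The DKO dose call of Il12rb2 (limma adjusted p = 0.0406) was not made in every alternative (0.00858 to 0.241). Its class held in 8 of the 12 fits that left out 1 array.

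Lists of regulators split. Of 15 measured effector regulators 4 had a negative and 2 a positive interaction, against 3.38% and 3.56% of all genes. Of 13 TH2 regulators and receptors, which include receptors and the cytokine Il24 already counted above, also 4 were negative and 2 positive. Among the positive ones, outside the naming rule, were the factors Bhlhe40 (an enhanced response) and Nfil3 (a gained rise). With 1 array left out at a time, Bhlhe40 kept its class in 9 of 12 fits and Nfil3 in only 2. Ahr, the ligand-activated aryl hydrocarbon receptor, read 23.9, 25.6 and 24.9 in WT cells at 2.2 ng and 249.8, 231 and 329 at 10 ng, against 23.1, 21.8 and 19.0 at 2.2 ng and 22.5, 22.4 and 35.0 at 10 ng in DKO cells. It rose at least 9.32-fold (adjusted p = 6.76e-13) in WT cells (interaction -3.13 ± 0.24, adjusted p = 6.55e-09). Hif1a, the oxygen-sensing factor, was well above background in every group. It read 662, 748 and 821 at 2.2 ng and 1759, 1799 and 1796 at 10 ng in WT cells, and 359, 398 and 361 at 2.2 ng and 346, 314 and 358 at 10 ng in DKO cells. The WT rise was 2.41-fold (95% CI 2.05 to 2.83), the DKO ratio 0.91 (95% CI 0.774 to 1.07) and the interaction -1.40 ± 0.16, adjusted p = 2.19e-06. The leucine zipper genes Fosl2 and Atf3 rose 6.74-fold (95% CI 5.31 to 8.57) and at least 10.8-fold (adjusted p = 4e-10) in WT cells. In DKO cells Fosl2 had a ratio of 1.36 (95% CI 1.07 to 1.73), which did not pass, and Atf3 rose 1.91-fold (95% CI 1.31 to 2.78). Their interactions were -2.31 ± 0.24, adjusted p = 5.58e-07 and -2.67 ± 0.37, adjusted p = 3.11e-05. The nuclear receptor Pparg rose 3.60-fold (95% CI 2.93 to 4.43) in WT cells and was below background at both doses in DKO cells (interaction -1.50 ± 0.20, adjusted p = 2.47e-05). The vitamin D receptor Vdr rose in both, 10.4-fold (95% CI 7.78 to 13.8) in WT and 4.36-fold (95% CI 3.27 to 5.80) in DKO cells (interaction -1.25 ± 0.28, adjusted p = 0.00606). Of 19 measured BATF, AP-1 and IRF factors, 4 had a negative interaction (Batf3, Fosl2, Atf3 and Irf1; 3.38% of all genes did). A positive one was called for 1, Nfatc1 (3.56% of all genes). Both deleted genes are in this list, and the call of Batf3 cannot be told apart from its deletion.

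In the chosen list of TNF and TNF receptor genes, 6 of 19 measured had a negative and 3 a positive interaction, against 3.38% and 3.56% of all genes. The list is a part of the superfamily and lacks Tnfsf9, whose positive interaction is given below. Tnfrsf9 (4-1BB), a costimulatory receptor, read 87.8, 92.6 and 109 at 2.2 ng and 475, 345 and 522 at 10 ng in WT cells. In DKO cells it was already at 146, 193 and 188 at 2.2 ng, above WT, and read 221, 264 and 174 at 10 ng. The WT rise was 4.58-fold (95% CI 3.60 to 5.82) and the interaction -1.88 ± 0.24, adjusted p = 8.44e-06. Tnfrsf8 (CD30) rose 4.25-fold (95% CI 3.17 to 5.69) in WT cells, from 95.2, 116 and 85.0 to 495, 404 and 359, and read 33.0, 32.5 and 21.6 at 2.2 ng and 36.0, 46.7 and 27.9 at 10 ng in DKO cells (interaction -1.75 ± 0.29, adjusted p = 0.000269). Tnfsf11 (RANKL) and Cd40lg, ligands that signal to osteoclast precursors and to B cells, went the other way. Tnfsf11 fell 1.69-fold (95% CI 1.31 to 2.17) in WT cells, from 150.4, 126 and 179 to 70.3, 98.0 and 102, and rose 2.16-fold (95% CI 1.68 to 2.78) in DKO cells, from 141, 166 and 196 to 357, 318 and 406. Cd40lg fell 1.95-fold (95% CI 1.47 to 2.58) in WT cells and rose 1.66-fold (95% CI 1.25 to 2.21) in DKO cells. Their interactions were 1.87 ± 0.25, adjusted p = 1.64e-05 and 1.69 ± 0.28, adjusted p = 0.000259.

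Genes whose fall with dose was lost included factors and adaptors of T cell receptor signalling. Tox, a factor of the HMG-box family, read 395, 412 and 305 in WT cells at 2.2 ng and 29.3, 31.7 and 22.0 at 10 ng. DKO values were 462, 439.7 and 378 at 2.2 ng and 393, 363 and 315 at 10 ng, so the WT arrays at 10 ng were apart from the other 9. The WT fall was at least 12.9-fold (adjusted p = 1.29e-14), the DKO ratio 0.836 (95% CI 0.677 to 1.03) and the interaction 3.49 ± 0.21, adjusted p = 1.43e-10. Trat1, an adaptor that associates with the T cell receptor, fell at least 18.4-fold (adjusted p = 5.23e-12) in WT cells, from 547, 563 and 469.9 to 24.1, 22.3 and 15.5. Without BATF and BATF3 it read 326, 391 and 396 at 2.2 ng and 315, 195 and 197 at 10 ng, lower at 10 ng on every array though not called (adjusted p = 0.124), and the interaction was 4.01 ± 0.37, adjusted p = 1.29e-07. Tespa1, a further component of receptor signalling, fell at least 2.73-fold (adjusted p = 1.89e-08) in WT cells and had a DKO ratio of 1.05 (95% CI 0.718 to 1.55) (interaction 2.99 ± 0.38, adjusted p = 9.07e-06). Dapl1, a gene of naive T cells, fell 10.9-fold (95% CI 6.55 to 18.3) in WT cells, from 747, 459.5 and 393 to 66.3, 64.7 and 23.9, and read 218, 279 and 457 at 2.2 ng and 659, 314 and 408 at 10 ng in DKO cells (interaction 3.99 ± 0.51, adjusted p = 9.67e-06).

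Icos, the costimulatory receptor of activated T cells, was abundant in every group. It read 1564, 1608 and 1239 at 2.2 ng and 513, 575 and 532 at 10 ng in WT cells, a fall of 2.71-fold (95% CI 2.26 to 3.23). In DKO cells it read 764, 861 and 764 at 2.2 ng and 1010.0, 1064 and 928 at 10 ng, higher at 10 ng on every array but not called (adjusted p = 0.119). The order of the genotypes therefore differed between doses, WT above DKO at 2.2 ng and below at 10 ng, and the interaction was 1.77 ± 0.18, adjusted p = 4.09e-07. Ifi203, an interferon-inducible DNA-binding protein of the IFI200 family, read 247, 294 and 167 at 2.2 ng and 16.6, 12.2 and 13.7 at 10 ng in WT cells, against 338, 434 and 315 at 2.2 ng and 297, 245 and 297 at 10 ng in DKO cells (interaction 3.67 ± 0.39, adjusted p = 9.5e-07). Of 18 measured genes in the chosen interferon-stimulated list, 4 had a positive interaction (Ifi203, Isg20, Ifit2 and Samd9l) and 3 a negative one (Stat2, Oas1a and Iigp1). Ifitm3, whose negative interaction is given above, is outside this list. The shares over all genes were 3.56% and 3.38%. Hgf and Gzmb, the growth factor and the granule protease, fell at least 1.71-fold (adjusted p = 2.97e-09) and 4.55-fold (95% CI 3.08 to 6.70) in WT cells. In DKO cells they read 6.34 to 7.51 and 14.7 to 22.3, at background, where no fall could be measured.

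Most measured genes of cell division fell with dose in WT cells, and none was called lower in DKO cells. Of 16 measured mitosis genes, 15 had a positive interaction and none a negative one, against 3.56% of all genes, with a median of 1.04 against 0.02. In WT cells 11 of 16 fell with dose (7.52% of all genes did) and none rose, and in DKO cells 7 rose (4.47%) and none fell. The exception in the interaction was Aurkb (0.60 ± 0.29, adjusted p = 0.28). Kif11, a motor protein of the spindle, read 544, 569 and 572 in WT cells at 2.2 ng and 272, 261 and 294 at 10 ng. It read 485, 515 and 514 at 2.2 ng and 581, 604 and 593 at 10 ng in DKO cells. The WT fall was 2.04-fold (95% CI 1.74 to 2.40), the DKO ratio 1.17 (95% CI 1.001 to 1.38) and the interaction 1.26 ± 0.16, adjusted p = 7.75e-06. Cdc20, the activator of the anaphase-promoting complex, fell 1.54-fold (95% CI 1.26 to 1.87) in WT cells, from 303, 216 and 297 to 151, 180.1 and 197, and rose 1.53-fold (95% CI 1.26 to 1.87) in DKO cells, from 201, 224 and 265 to 344, 377 and 329.99 (interaction 1.24 ± 0.20, adjusted p = 0.000157). The checkpoint kinase Bub1b had 1.23 ± 0.21, adjusted p = 0.0004 and the mitotic cyclin Ccnb2 1.11 ± 0.19, adjusted p = 0.000399.

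Of 18 measured DNA replication genes 12 had a positive interaction (3.56% of all genes did) and none a negative one. In WT cells 11 fell with dose (7.52% of all genes did), and in DKO cells 2 rose, Mcm10 and Cdc45 (4.47%). Tyms, thymidylate synthase, read 464, 333 and 462 at 2.2 ng and 138, 136 and 176 at 10 ng in WT cells, a fall of 2.78-fold (95% CI 2.15 to 3.60), and 324, 409 and 419.8 at 2.2 ng and 414, 438 and 378 at 10 ng in DKO cells (interaction 1.57 ± 0.25, adjusted p = 0.000203). Rrm2, a subunit of ribonucleotide reductase, had 1.09 ± 0.22, adjusted p = 0.00195. The count of 12 rests on several arrays: it was 4 without WT replicate 3 at 2.2 ng, 5 without WT replicate 2 at 10 ng, 4 without DKO replicate 1 at 2.2 ng and 6 without DKO replicate 2 at 10 ng. All 18 had an estimate above 0. The mitosis count stayed at 13 to 15. The genotypes differed, DKO against WT, in 739 of 19938 genes at 2.2 ng (3.71%; 1.65% higher and 2.06% lower) and in 2545 at 10 ng (12.8%; 6.68% higher and 6.09% lower). At 10 ng, 12 of 16 mitosis and 15 of 18 replication genes were higher in DKO than in WT cells (6.68% of all genes were). At 2.2 ng 2 mitosis genes were lower in DKO cells (2.06% of all genes were) and no replication gene was called.

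**Figure D3:**
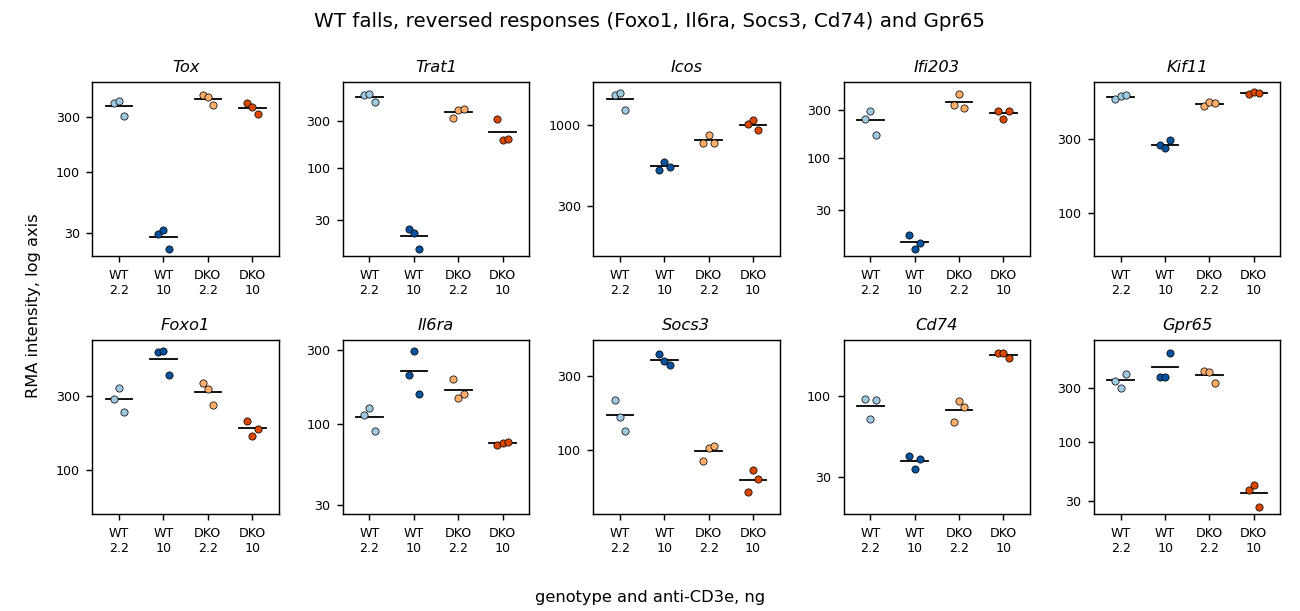
Array intensities (log axis) of 10 genes in WT and DKO cells at 2.2 and 10 ng of anti-CD3e, 1 point per array with the mean as a bar. Tox, Trat1, Icos, Ifi203 and Kif11 were low on the WT arrays at 10 ng, Foxo1, Il6ra and Socs3 rose in WT and fell in DKO cells, Cd74 did the opposite, and Gpr65 fell in DKO cells alone.

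Sterol synthesis genes rose with dose in DKO cells, and most were not called in WT cells. Of 16 measured cholesterol synthesis genes 15 had a positive interaction (3.56% of all genes did), with a median of 1.38. All 16 rose with dose in DKO cells (4.47% of all genes did), and 2, Mvd and Fdft1, rose in WT cells (7.64%). Fdft1, squalene synthase, was the exception in the interaction: it rose 1.83-fold (95% CI 1.40 to 2.40) in WT and 2.76-fold (95% CI 2.11 to 3.60) in DKO cells (0.59 ± 0.26, adjusted p = 0.233). Hmgcs1, which makes the HMG-CoA that enters the pathway, read 329, 322 and 345 in WT cells at 2.2 ng and 315, 296 and 286 at 10 ng. It read 179.5, 198 and 199.9 at 2.2 ng and 634, 688 and 619 at 10 ng in DKO cells. DKO arrays were thus below WT arrays at 2.2 ng and above them at 10 ng. The WT ratio was 0.901 (95% CI 0.744 to 1.09), the DKO rise 3.36-fold (95% CI 2.78 to 4.07) and the interaction 1.90 ± 0.19, adjusted p = 4.01e-07.

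Later enzymes of the pathway gave like values. Lss, which closes the sterol ring, read 112, 74.8 and 92.4 at 2.2 ng and 122, 121 and 117 at 10 ng in WT cells, and 44.9, 42.3 and 49.7 at 2.2 ng and 186, 163 and 159.6 at 10 ng in DKO cells (interaction 1.51 ± 0.22, adjusted p = 6.59e-05). Cyp51 rose 2.63-fold (95% CI 2.15 to 3.21) and Nsdhl 2.97-fold (95% CI 2.26 to 3.91) in DKO cells, both of them demethylating enzymes. Their WT ratios were 0.904 (95% CI 0.739 to 1.11) and 0.79 (95% CI 0.601 to 1.04) and their interactions 1.54 ± 0.20, adjusted p = 1.25e-05 and 1.91 ± 0.27, adjusted p = 3.61e-05. For the list, 12 of 16 genes were lower in DKO than in WT cells at 2.2 ng (2.06% of all genes were) and 9 were higher at 10 ng (6.68%). These contrasts share arrays with the interaction. The sterol response element of Hmgcs1 is shown as a landmark, chosen after the values were seen. TCACNCCAC was found in the windows of 1.2% of genes and in 1 of the 13 list members with a promoter, Hmgcs1, 137 bases upstream (GRCm38.p6, chr13:119690174-119690262, plus strand, match in capitals).
Hmgcs1: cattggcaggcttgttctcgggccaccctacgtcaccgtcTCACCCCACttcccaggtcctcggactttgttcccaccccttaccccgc
No match in the other 12 says only that these letters were not in those windows.

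The fatty acid list had 7 positive interactions and 1 negative one (Elovl7) among 14 measured genes, against 3.56% and 3.38% of all genes. Scd1, the stearoyl-CoA desaturase, read 82.3, 71.6 and 71.9 in WT cells at 2.2 ng and 566, 505 and 649 at 10 ng. The DKO arrays read 10.3, 9.08 and 9.04, below background, and then 936, 1305 and 989. It rose 7.59-fold (95% CI 4.17 to 13.8) in WT and at least 37.2-fold (adjusted p = 1.19e-10) in DKO cells (interaction 3.89 ± 0.59, adjusted p = 9.62e-05). Fads2, a desaturase of polyunsaturated fatty acids, read 202, 205 and 167 at 2.2 ng and 277, 224 and 250.3 at 10 ng in WT cells. DKO values were 21.4, 19.5 and 30.9 at 2.2 ng and 511, 527 and 504 at 10 ng, a rise of at least 18.0-fold (adjusted p = 7.13e-10) against a WT ratio of 1.31 (95% CI 0.847 to 2.03) (interaction 4.06 ± 0.43, adjusted p = 8.43e-07). Scd2 rose 5.20-fold (95% CI 3.60 to 7.53) in DKO cells, from 369, 366 and 366 to 2076, 1957 and 1714, and read 1035, 1222 and 1161 at 2.2 ng and 1641, 1394 and 1659.8 at 10 ng in WT cells (interaction 1.92 ± 0.36, adjusted p = 0.0012). For Scd1, Fads2 and Scd2, DKO arrays lay below every WT array at 2.2 ng and above every WT array at 10 ng. Acaca, acetyl-CoA carboxylase, fell 1.43-fold (95% CI 1.14 to 1.79) in WT cells and rose 1.74-fold (95% CI 1.39 to 2.18) in DKO cells (1.32 ± 0.22, adjusted p = 0.000326).

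**Figure D4:**
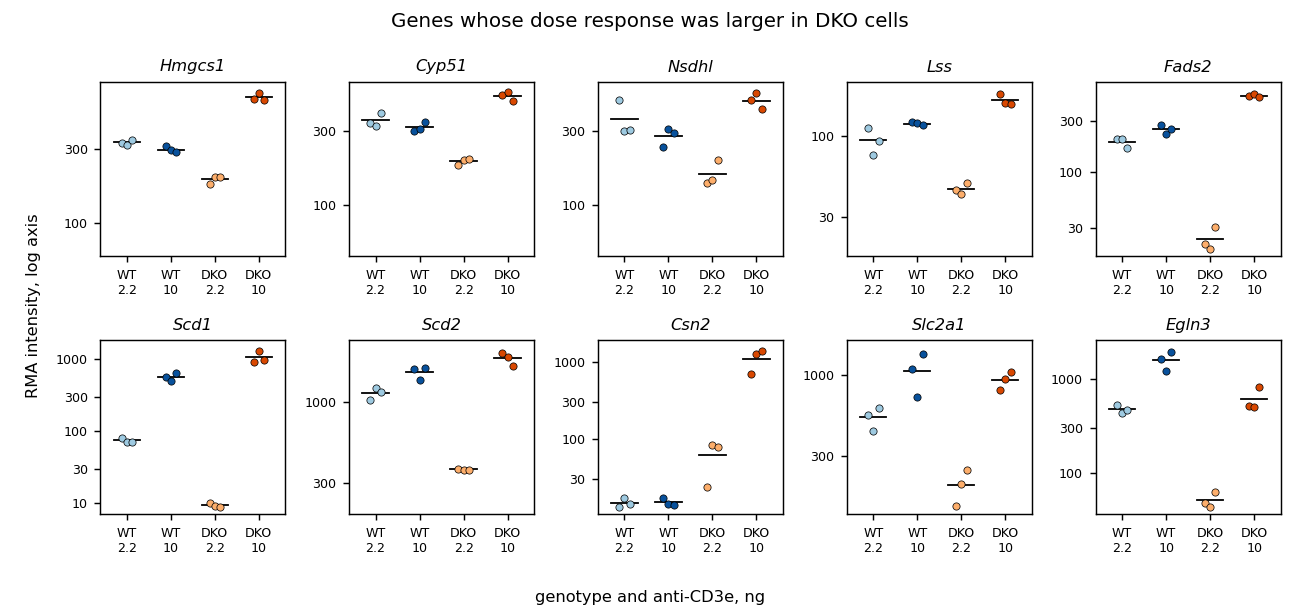
Array intensities (log axis) of 10 lipid, casein, glucose transport and hypoxia genes in WT and DKO cells at 2.2 and 10 ng of anti-CD3e, 1 point per array with the mean as a bar. In every panel but Csn2 the DKO arrays at 2.2 ng were below the WT arrays at the same dose, and the step to 10 ng was larger in DKO cells.

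Most glycolysis genes rose with dose in both genotypes, and 9 genes of the list had a larger dose effect in DKO cells. Of these, 5 were called as rising in both genotypes and 4 (Pfkl, Tpi1, Pkm and Ldha) in DKO cells alone. Of 13 measured, 9 had a positive interaction (3.56% of all genes did) and none a negative one. With dose 8 rose in WT cells (7.64% of all genes did) and 12 in DKO cells (4.47%). Without WT replicate 3 at 2.2 ng the 9 became 6. Slc2a1, the glucose transporter GLUT1, read 553, 438 and 617 at 2.2 ng and 1089, 720.1 and 1363 at 10 ng in WT cells, and 145, 200.5 and 246 at 2.2 ng and 809, 946 and 1047 at 10 ng in DKO cells. It rose 1.93-fold (95% CI 1.45 to 2.56) in WT and 4.82-fold (95% CI 3.62 to 6.42) in DKO cells (interaction 1.32 ± 0.28, adjusted p = 0.00366). Tpi1, triosephosphate isomerase, rose 3.41-fold (95% CI 2.60 to 4.46) in DKO cells, from 407, 510.3 and 619.8 to 1702, 1790.3 and 1672, and had a WT ratio of 1.28 (95% CI 0.979 to 1.68), with 1381, 1117 and 1598 at 2.2 ng and 1871, 1585 and 1747 at 10 ng (interaction 1.41 ± 0.27, adjusted p = 0.00112). The phosphofructokinase Pfkl had 1.34 ± 0.24, adjusted p = 0.000751 and the lactate carrier Slc16a3 1.30 ± 0.29, adjusted p = 0.00483. At 2.2 ng, 12 of the 13 were lower in DKO than in WT cells (2.06% of all genes were), and at 10 ng 3 were (6.09%).

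The hypoxia list split. Of its 17 genes 14 rose with dose in WT cells (7.64% of all genes did) and 12 in DKO cells (4.47%). In the interaction 4 were positive (3.56% of all genes were) and 2 negative (3.38%). Egln3, the oxygen-sensing prolyl hydroxylase that marks HIF proteins for destruction, read 522, 428 and 467 at 2.2 ng and 1648, 1219 and 1938 at 10 ng in WT cells, and 46.8, 43.3 and 62.1 at 2.2 ng and 511, 498 and 824 at 10 ng in DKO cells. It rose 3.34-fold (95% CI 2.44 to 4.58) and 11.9-fold (95% CI 8.66 to 16.3) (interaction 1.83 ± 0.31, adjusted p = 0.000376), while Hif1a itself rose in WT cells and was not called in DKO cells, as above. Epas1, which encodes HIF-2 alpha, fell 2.85-fold (95% CI 2.09 to 3.89) in WT cells, from 1365, 1693 and 883 to 488, 488 and 369.9, and rose 1.74-fold (95% CI 1.27 to 2.37) in DKO cells, from 151, 101 and 121 to 254, 175 and 219, still below WT (2.31 ± 0.31, adjusted p = 1.66e-05).

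Among 20 amino acid, one-carbon and ATF4 genes 5 had a positive interaction (3.56% of all genes did) and none a negative one. The count was 8 without WT replicate 2 at 2.2 ng. Asns, asparagine synthetase, read 172, 161 and 194 at 2.2 ng and 373, 340.2 and 360.4 at 10 ng in WT cells and 85.0, 109 and 124 at 2.2 ng and 420.3, 595 and 499.6 at 10 ng in DKO cells (interaction 1.22 ± 0.27, adjusted p = 0.00431). The glutathione-degrading enzyme Chac1 had 1.39 ± 0.26, adjusted p = 0.000979, the amino acid carriers Slc1a5 and Slc7a5 had 1.41 ± 0.25, adjusted p = 0.000471 and 1.02 ± 0.23, adjusted p = 0.00549. Outside the lists, Cth, cystathionine gamma-lyase, rose at least 1.70-fold (adjusted p = 1.28e-05) in WT and at least 5.63-fold (adjusted p = 1.74e-10) in DKO cells (1.85 ± 0.30, adjusted p = 0.000219). All 12 measured ribosomal protein genes stayed uncalled in the interaction and in both dose contrasts (limma; at an unadjusted p under 0.05 they numbered 0, 3 in WT and 0 in DKO cells), with medians of -0.08, 0.18 in WT and 0.08 in DKO cells. Of 17 ribosome biogenesis genes 2 had a positive interaction, Nop56 and Nop58 (3.56% of all genes did), and none a negative one, with a median of 0.43. In WT cells 8 of the 17 fell with dose (7.52% of all genes did) and 2 rose (7.64%). In DKO cells none was called (4.47% of all genes rose and 3.68% fell). With 1 array left out at a time, Nop56 kept its class in 10 of 12 fits and Nop58 in 4.

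**Figure D5:**
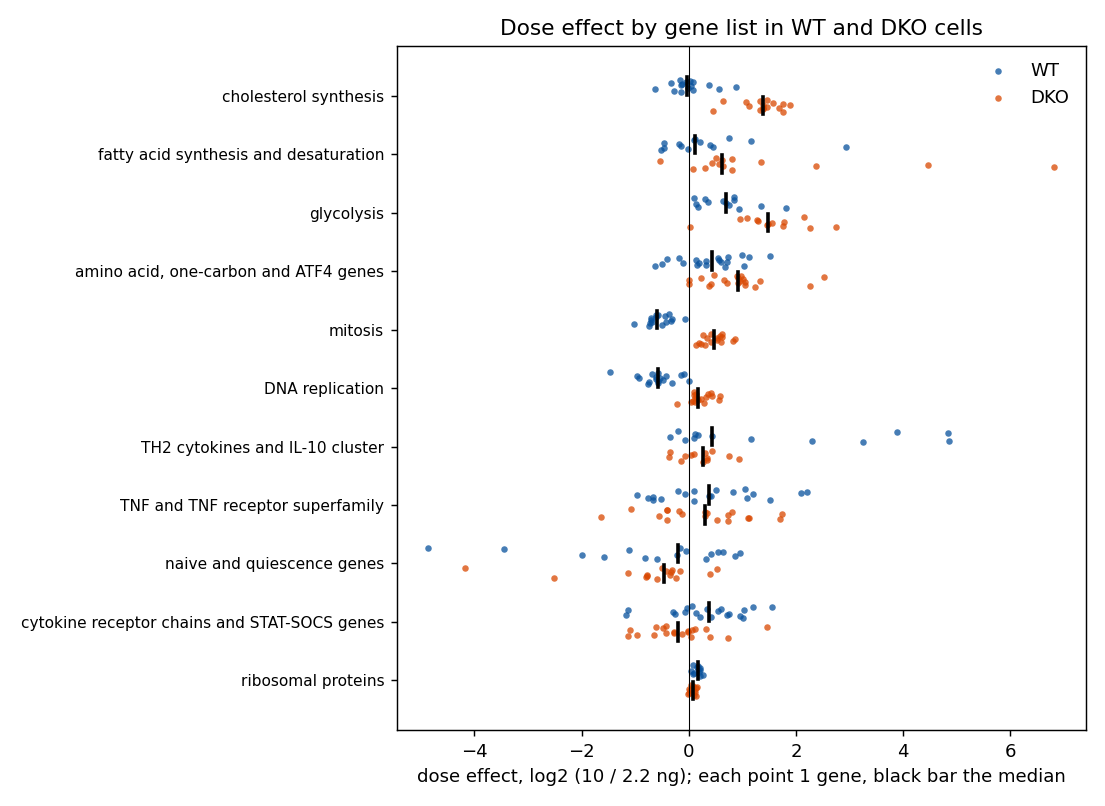
Dose effect (log2 of 10 over 2.2 ng) of the measured genes of 11 lists in WT and DKO cells, 1 point per gene with the median as a black bar. The cholesterol list is centred near 0 in WT cells and at 1.39 in DKO cells, mitosis at -0.60 and 0.47, glycolysis at 0.70 and 1.48, and the ribosomal proteins lie near 0 in both.

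Gained rises outside metabolism included genes best known from other tissues. Csn2, the milk protein beta-casein, read 13.1, 16.8 and 14.1 in WT cells at 2.2 ng and 17.2, 14.3 and 13.8 at 10 ng, all below background. Without BATF and BATF3 it read 23.3, 82.5 and 78.4 at 2.2 ng and 685, 1235 and 1356 at 10 ng, a rise of 19.7-fold (95% CI 12.7 to 30.5) (interaction 4.26 ± 0.43, adjusted p = 5.37e-07). Nrp1, the co-receptor neuropilin-1, lay at or below background in all WT arrays and rose from 21.1, 20.2 and 16.4 to 84.9, 111 and 87.6 in DKO cells (interaction 2.26 ± 0.27, adjusted p = 3.53e-06). Tnfsf9, the ligand of 4-1BB, rose at least 4.79-fold (adjusted p = 6.23e-05) in DKO cells (2.93 ± 0.58, adjusted p = 0.00181), and the testis gene Tex35 4.22-fold (95% CI 2.98 to 5.99) (2.49 ± 0.35, adjusted p = 3.06e-05). Cd24a, a surface glycoprotein, was high in WT cells, 1202, 1201 and 1481 at 2.2 ng and 691, 658 and 836 at 10 ng, and rose from 9.18, 37.1 and 17.5 to 47.6, 51.0 and 73.4 in DKO cells (2.46 ± 0.51, adjusted p = 0.00262). Among responses larger in DKO cells, Nrn1, encoding neuritin, rose 2.09-fold (95% CI 1.28 to 3.42) in WT and 11-fold (95% CI 6.73 to 18.0) in DKO cells (2.40 ± 0.49, adjusted p = 0.00226), and the stress gene Ier3 2.42-fold (95% CI 1.50 to 3.92) and at least 8.07-fold (adjusted p = 1.99e-07) (2.12 ± 0.48, adjusted p = 0.00574). Ccr8, a TH2 chemokine receptor, rose 1.87-fold (95% CI 1.42 to 2.45) in WT and 4.05-fold (95% CI 3.08 to 5.33) in DKO cells but stayed lower in DKO cells at both doses (1.12 ± 0.27, adjusted p = 0.0103), and its call was lost in the fit of the 12 arrays alone (adjusted p = 0.0504; 0.000801 to 0.0504 over alternatives).

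Gained and enhanced falls included several surface receptors. Gpr65, a proton-sensing receptor, read 346, 299 and 399 at 2.2 ng and 376, 375 and 610.3 at 10 ng in WT cells. In DKO cells it read 420.2, 411 and 331 at 2.2 ng and 37.3, 40.9 and 26.6 at 10 ng, a fall of 11.2-fold (95% CI 7.55 to 16.6), and the interaction was -3.84 ± 0.39, adjusted p = 5.29e-07. S1pr1, the receptor by which lymphocytes leave lymph nodes, read 412, 666 and 229.5 at 2.2 ng and 238, 272 and 285 at 10 ng in WT cells, and 716, 669 and 493 at 2.2 ng and 160.1, 70.3 and 113 at 10 ng in DKO cells (interaction -1.92 ± 0.38, adjusted p = 0.00188). Foxp3, the factor of regulatory T cells, fell in both genotypes. It read 62.1, 82.1 and 53.5 at 2.2 ng and 28.4, 35.2 and 39.3 at 10 ng in WT cells, and 263, 238 and 209.96 at 2.2 ng and 49.2, 51.7 and 47.3 at 10 ng in DKO cells, above WT at both doses. The falls were 1.91-fold (95% CI 1.57 to 2.32) and 4.78-fold (95% CI 3.93 to 5.82) and the interaction -1.33 ± 0.19, adjusted p = 5.66e-05. The IL-18 receptor chain Il18r1 fell at least 1.74-fold (adjusted p = 3.4e-07) in DKO cells (-1.78 ± 0.27, adjusted p = 0.000119), the IL-4 receptor alpha chain Il4ra 1.81-fold (95% CI 1.47 to 2.23) (-0.95 ± 0.21, adjusted p = 0.00429) and the survival factor Mcl1 1.76-fold (95% CI 1.48 to 2.10) (-0.74 ± 0.17, adjusted p = 0.0084).

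Among reversals, 48 genes rose with dose in WT and fell in DKO cells, and 56 did the opposite. Foxo1, a factor that maintains the naive state, read 285, 338 and 234 in WT cells at 2.2 ng and 572, 580.2 and 405 at 10 ng. The DKO arrays read 361, 332 and 261 at 2.2 ng and 207, 165 and 183 at 10 ng. It rose 1.81-fold (95% CI 1.42 to 2.32) in WT and fell 1.71-fold (95% CI 1.34 to 2.19) in DKO cells, with no overlap between doses in either (interaction -1.64 ± 0.24, adjusted p = 7.13e-05). Il6ra, the IL-6 receptor chain of naive and memory cells, read 114, 126 and 90.1 at 2.2 ng and 206, 292 and 156 at 10 ng in WT cells, and 194, 146 and 154 at 2.2 ng and 72.9, 74.99 and 75.8 at 10 ng in DKO cells (interaction -2.08 ± 0.25, adjusted p = 4.52e-06). Il21r, the receptor for IL-21, rose 1.63-fold (95% CI 1.35 to 1.97) in WT and fell 1.57-fold (95% CI 1.30 to 1.90) in DKO cells (-1.36 ± 0.19, adjusted p = 3.19e-05). Foxo1, Il6ra and Il21r kept their class without each array in turn.

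Socs3, the feedback inhibitor of cytokine signalling, rose 2.30-fold (95% CI 1.84 to 2.89) in WT cells, from 211, 162 and 132 to 417, 375 and 355, and fell 1.53-fold (95% CI 1.22 to 1.92) in DKO cells, from 85.3, 104 and 105 to 54.0, 74.0 and 65.0 (-1.82 ± 0.22, adjusted p = 6.27e-06). With Stat5a (-0.97 ± 0.24, adjusted p = 0.0108), these were 4 negative and no positive interactions among 20 measured cytokine receptor and STAT-SOCS genes. Over all genes 3.38% were negative and 3.56% positive. Of the 20 genes 8 rose and 2 fell with dose in WT cells (7.64% and 7.52% of all genes), and 2 rose and 6 fell in DKO cells (4.47% and 3.68%). Ctla4, the inhibitory receptor, read 1682, 1652 and 1499.8 at 2.2 ng and 2832, 2359 and 3492 at 10 ng in WT cells and 311, 494 and 440.2 at 2.2 ng and 228, 206 and 236 at 10 ng in DKO cells. It rose 1.78-fold (95% CI 1.22 to 2.59) and fell 1.83-fold (95% CI 1.25 to 2.66), and the interaction was -1.70 ± 0.37, adjusted p = 0.00467. It kept the interaction call throughout, but the opposite dose calls only in 2 of the 12 fits that left out an array. Pik3ap1, an adaptor of PI3 kinase, rose 3.72-fold (95% CI 2.82 to 4.90) in WT and fell 1.64-fold (95% CI 1.24 to 2.15) in DKO cells (-2.60 ± 0.27, adjusted p = 6.46e-07).

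In the other direction, Cd74, the invariant chain of class II molecules, read 95.4, 70.7 and 93.9 at 2.2 ng and 41.2, 34.1 and 39.2 at 10 ng in WT cells, and 68.0, 92.6 and 84.6 at 2.2 ng and 190.3, 188 and 175 at 10 ng in DKO cells. It fell 2.26-fold (95% CI 1.65 to 3.09) and rose 2.28-fold (95% CI 1.66 to 3.12) (interaction 2.36 ± 0.31, adjusted p = 1.51e-05). H2-Ab1, a class II beta chain that like the next 3 genes was added with its values in view, rose in both, from 128, 61.9 and 94.6 to 877, 590.3 and 866 in WT and from 18.0, 34.2 and 16.6 to 203, 264 and 213 in DKO cells (0.30 ± 0.36, adjusted p = 0.791). Among markers of other cells, Cd79b of B cells rose 2.00-fold (95% CI 1.54 to 2.60) in DKO cells, from 37.0, 43.1 and 50.2 to 74.5, 121 and 71.0 (1.33 ± 0.26, adjusted p = 0.00153), with 7 of 8 B cell markers at or below background in all groups. Ctss, of the macrophage list, fell 3.32-fold (95% CI 2.55 to 4.32) in WT cells and had a DKO ratio of 0.85 (95% CI 0.653 to 1.11) (1.50 ± 0.26, adjusted p = 0.000469), with 8 of its 10 markers at or below background. The summed signal of the 10 macrophage markers was 285 to 368 in WT cells at 2.2 ng, 222 to 225 at 10 ng, and 409 to 489 and 372 to 444 in DKO cells. That of the 5 natural killer markers was 208 to 259, 40.6 to 51.7, 535 to 694 and 62.7 to 91.1 in the same order, and the 1 marker above background was Eomes. It fell at least 6.96-fold (adjusted p = 1.03e-08) in WT and 13.03-fold (95% CI 8.48 to 20.0) in DKO cells (-0.32 ± 0.42, adjusted p = 0.811). The part of such cells in these results was not tested.

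Kcnmb1, a subunit of a potassium channel, had the largest interaction among reversals (3.22 ± 0.37, adjusted p = 2.55e-06). It read 87.2, 75.4 and 87.0 at 2.2 ng and 21.1, 37.9 and 29.0 at 10 ng in WT cells, and 58.6, 43.1 and 30.2 at 2.2 ng and 142, 132 and 134 at 10 ng in DKO cells, so that the order of the genotypes also turned. Penk, encoding enkephalin, fell 3.14-fold (95% CI 2.22 to 4.43) in WT cells and rose at least 1.57-fold (adjusted p = 0.0132) in DKO cells (2.59 ± 0.34, adjusted p = 1.52e-05). Itih5 and Lin7a behaved alike in sign, with 2.50 ± 0.30, adjusted p = 3.69e-06 and 2.36 ± 0.20, adjusted p = 4.08e-08. With 1 array left out at a time, Kcnmb1, Itih5, Lin7a and Cd74 kept opposite dose calls in all 12 fits, Penk in 10, Socs3 and Cd40lg in 9, Epas1, Acaca and Pik3ap1 in 8 and Bub1b in 7. The call of a smaller DKO rise in Atf3 held in 8 of the 12.

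Lists of T cell states split within themselves. For the counts in this paragraph, 3.56% of all genes had a positive and 3.38% a negative interaction. Of 16 measured naive and quiescence genes 3 had a positive interaction (Dapl1, Foxp1 and Klf3) and 6 a negative one (Foxo1, Il6ra, S1pr1, Ccr7, Btg1 and Btg2), and without WT replicate 3 at 2.2 ng 3 were negative. Foxp1, a quiescence factor, fell 4.00-fold (95% CI 3.27 to 4.89) in WT cells and 1.71-fold (95% CI 1.40 to 2.09) in DKO cells (1.23 ± 0.20, adjusted p = 0.000211). In the dose contrasts 4 of the 16 rose and 6 fell in WT cells (7.64% and 7.52% of all genes). In DKO cells none rose and 8 fell (4.47% and 3.68%). Of 11 regulatory T cell genes 2 were positive and 3 negative, among them Nrp1 and Foxp3 above. Of 20 immediate receptor-induced genes 5 were positive (Nr4a3, Nab2, Rel, Nfkb2 and Ier3) and 2 negative (Rgs1 and Tnfaip3). The 5 became 3 without WT replicate 3 at 2.2 ng, WT replicate 2 at 10 ng, DKO replicate 1 or 3 at 2.2 ng, or DKO replicate 2 or 3 at 10 ng, each left out alone. Of 20 chemokine and chemokine receptor genes 3 were positive and 2 negative, and of 16 integrin and adhesion genes 2 and 2.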

How the data were processed

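RNA was measured on biotin-labelled expression arrays. The values are RMA intensities on a linear scale, made by the authors per the submitters' processing notes, which name RMA with no version, and the settings of RMA are not given in these sources. The deposited intensity was log2 transformed with no pseudocount. Of 35556 probe sets, the platform annotation gave 21789 exactly 1 symbol, 1621 several and 12146 none. The 1-symbol sets were used, 21698 of them matching RefSeq, and 999 genes had several sets, of which the brightest on average was kept, giving 19938 genes.

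A limma 3.58.1 model (R 4.3.3) with 8 group means was fitted to all 24 arrays (16 residual degrees of freedom, 7.49 prior), which share one estimate of the spread. Each contrast was Benjamini-Hochberg adjusted over 19938 genes, with adjusted p under 0.05 called. Errors after ± are standard errors, and confidence intervals are at 95%. The number of arrays limits the precision, and residual spread is pooled over groups. On simulated data with the same design, the interaction was recovered for 5 of 50 genes with a true log2 change of 0.5, 30 of 50 at 1, 49 of 50 at 2 and 50 of 50 at 3, with 5 of 139 calls on unchanged genes. The simulation used independent normal noise and an interaction in these genes alone. It made 139 calls against 1384 in the data, so its adjusted threshold was stricter and its rates need not hold for the data.

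Named genes were Batf, Batf3 and Irf4, the 15 largest interactions in each direction, the 6 largest in each response class and up to 4 with the smallest p from each of 29 lists (430 of 466 genes measured). Other genes named as members of a count, as its exception or with values were added after values were seen. The members and lists were chosen with earlier results of these data known. The alternatives were a filter on dim genes, other treatments of probe sets, 2 further normalizations, a fit to 12 arrays, blocking by replicate number, a trended robust fit, array weights and each array left out. Replicate numbers did not pair the samples: of 18 same-number pairs of arrays, 3 correlated above 0.1 (-0.15 to 0.26).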

Additional observations from a re-analysis of the deposited data

Results flagged for a closer look

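The dose effect differed between genotypes, by the interaction test in limma, for 1384 of 19938 genes. For 104 of these the dose effect was called in opposite directions in WT and DKO cells.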

How the results depend on the processing

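Of the 149 named genes, 132 were called in the interaction. Over 21 alternatives none of these 132 changed the sign of its interaction, and 117 stayed called in every alternative. For the other named genes a change of sign between uncalled fits was not counted. The dim-gene filter, the fit of every probe set, the 12 arrays alone, the replicate block and the trended robust fit keep a gene's estimate. A sign could therefore not change in those fits. Most named genes were chosen for large effects or small p in these data, which favours keeping their calls. Of all 1384 called genes, 1011 stayed called without WT replicate 3 at the lower dose. Counts of calls moved more. Leaving out 1 array at a time gave 478 to 883 positive and 509 to 713 negative interactions, 577 to 949 higher and 466 to 778 lower genes in the DKO dose contrast, and 1131 to 1517 and 1143 to 1506 in WT cells. It gave 327 to 446 lost rises, 248 to 497 lost falls, 95 to 197 gained rises, 62 to 132 gained falls, 60 to 119 reversals, 35 to 73 reduced responses and 61 to 121 genes with neither dose called. For the lists it gave 4 to 13 DNA replication genes, 4 to 8 amino acid genes and 3 to 5 immediate receptor-induced genes with a positive interaction, and 3 to 6 naive genes with a negative one. With array weights there were 98 reduced responses, and with the 12 arrays alone 3 immediate genes were positive. The causes were not tested. With the replicate number as a block, 706 positive and 673 negative interactions were called and no other count moved by over 1.5 times. The share of positive calls ran from 46.3 to 56% over the settings. Few arrays limit small effects most: in the simulation, where the adjusted threshold was stricter than in the data, most changes of 0.5 were missed. Signal at or below the background guide of 28.6 gives no measured fold.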

Other observations

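Some gene families were counted in the interaction, grouped after their values were seen, so their counts are descriptions. Over all genes 3.56% had a positive and 3.38% a negative call. Of 26 measured replication-dependent histone genes, whose messages are made in S phase, 18 had a positive interaction and none a negative one, with a median of 1.12. With dose 15 of them fell in WT cells and 8 rose in DKO cells. Of 8 GIMAP genes, GTPases of resting lymphocytes, 6 had a negative interaction and none a positive one: 4 of the 8 rose with dose in WT cells and 4 fell in DKO cells. Positive calls numbered 3 of 7 Schlafen genes, 3 of 10 IFI200 genes (Ifi203 included), 2 of 5 caseins, 2 of 14 tubulins and 1 of 10 granzymes, with no negative call in these families. Of 19 MS4A genes none was called in the interaction by limma, and 1 had an unadjusted p under 0.05.

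All 35556 probe sets were also fitted together, with the adjustment over all of them, so these counts differ from the 1384 of the main fit. Of 12146 probe sets with no gene symbol, 160 (1.32%) were called in the interaction. The calls were 65 of 1621 sets with several symbols (4.01%) and 1116 of 21789 sets with 1 symbol (5.12%).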
